A study of Mus musculus with 10 samples.

Results

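This section describes 39 mouse genes of the NRF2 pathway and of the enzymes that remove peroxides and superoxide, out of 46509 gene rows. They were listed by symbol, and all 39 symbols were found in the 3 deposited tables of all genes, which hold libraries 7 to 10. Of the 39, 38 reached an FPKM (fragments counted per length of transcript and per size of library) of 1 or more in at least 1 of these libraries. Txnrd1 was listed at exactly 0 in 3 libraries and was set apart, and Sod3 stayed below an FPKM of 1 throughout, which leaves 37 members that could be compared.

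The study sequenced RNA from 10 libraries, 1 for each of 10 groups, of proximal tubule cells of the mouse kidney, and 4 of these libraries carry the results here. The cells were conditionally immortalized and came from mice of mixed strain, N2 FVB carrying floxed TbRII and crossed with the Immorto-mouse, whose transgene lets cells grow at a permissive temperature. Cells were grown at the permissive temperature, and then moved to a warmer one with interferon gamma removed. All 4 libraries came from cells that were transfected with siRNA and that received 100 uM H2O2, the oxidant, and 20 ng/mL Wnt3a, a ligand that stabilises beta-catenin. Library 7 had scramble siRNA, library 8 siRNA to FoxO1, library 9 siRNA to FoxO3 and library 10 both. FoxO1 and FoxO3 are forkhead transcription factors that are themselves known regulators of antioxidant genes. Because every one of these libraries had H2O2, none of the ratios below is a response to the oxidant. Libraries 1 to 6, without H2O2 or without siRNA or both, are held only in lists of genes selected by the authors. No library has a replicate, so no test between conditions was made and no difference has a replicate error. In bulk RNA, fewer cells of a kind and less RNA per cell cannot be told apart.

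NRF2, encoded by Nfe2l2, is held in the cytoplasm and marked for degradation by KEAP1. When oxidants or electrophiles modify KEAP1, NRF2 accumulates, pairs with a small MAF protein and binds antioxidant response elements in DNA. Its known targets make and recycle glutathione, reduce thioredoxin, supply NADPH, store iron and conjugate toxic compounds. Proximal tubule cells reabsorb most of the filtered solutes, depend on mitochondria to do so, and are a main site of oxidant injury in the kidney.

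The targeted genes were read first. Foxo1 (chromosome 3, 52268336 to 52353221 of mm10) stood at an FPKM of 7.92 in library 7, 3.66 in library 8, 8.54 in library 9 and 4.67 in library 10. Foxo3 (chromosome 10, 42181841 to 42276755) had an FPKM of 19.7, 17.7, 19.9 and 17.4 in the same order. Foxo1 was thus low in both libraries given its siRNA, while Foxo3 was not lower in library 9 than in the scramble library. In library 10 the Foxo3 ratio to the scramble library was -0.17, close to the -0.14 of library 8, which had no siRNA to FoxO3. Libraries 9 and 10 are therefore called below the library labelled FoxO3 siRNA and the library labelled with both siRNAs. Of 16 proximal tubule markers 7 were measured, Aqp1, Lrp2, Pax8 and Slc5a12 among them, with a summed FPKM of 298 to 320, and Slc22a6, Slc22a8 and Dpp4 were at 0 in all 4 libraries. The epithelial keratins Krt8 and Krt18 were the measured members of a list of 4 epithelial genes, whose summed FPKM was 51.7, 51.6, 40.0 and 49.5 in libraries 7, 8, 9 and 10. The podocyte list (2 of 5 measured) summed to 32.7, 25.6, 25.7 and 29.4. Endothelial and distal nephron lists had 0 measured genes, and the fibroblast and leukocyte lists summed to values between 6.69 and 7.90 and between 7.24 and 7.70. The part of these marker differences in the results below was not tested. Total fragments per library are not given, so the depth behind each FPKM is unknown and no counting interval is given.

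The core of the antioxidant response element, TGACNNNGC, was searched on both strands in the 250 bases before each RefSeq start site (build GRCm38.p6). Of the 39 members, 32 had a promoter entry, and 7 of the 32 (21.9%) held the core, against 11.5% of 27025 genes. Counted by promoter, 7 of 43 promoters of members (16.3%) held it, against 10.2% of 32851 promoters. The 8 matches are shown because they fit the core of the element that NRF2 is known to bind. Each line runs 5′ to 3′ on the strand of the gene, with the matching letters in capitals and 10 bases on either side.
Gclm: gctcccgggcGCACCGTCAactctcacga
G6pdx: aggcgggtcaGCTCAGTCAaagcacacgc
Ugdh, farther match: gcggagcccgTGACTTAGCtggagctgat
Ugdh, nearer match: tcctcaagggGCGTGGTCAtacagttcgg
Prdx1: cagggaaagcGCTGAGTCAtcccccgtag
Nfe2l2: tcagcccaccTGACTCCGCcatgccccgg
Sod1: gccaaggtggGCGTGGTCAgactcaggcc
Txnrd1: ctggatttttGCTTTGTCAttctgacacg

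The windows lie at chr3:122245413-122245441 (Gclm, plus strand), chrX:74428919-74428947 (G6pdx, minus), chr5:65435956-65435984 and chr5:65435918-65435946 (Ugdh, minus), chr4:116685456-116685484 (Prdx1, plus), chr2:75704885-75704913 (Nfe2l2, minus), chr16:90220696-90220724 (Sod1, plus) and chr10:82859104-82859132 (Txnrd1, plus). The first base of the core stood 134 bases before the start site in Gclm, 57 in G6pdx, 132 and 94 in Ugdh, 133 in Prdx1, 240 in Nfe2l2, 56 in Sod1 and 92 in Txnrd1. Nfe2l2 itself and the upstream Ugdh match read TGACNNNGC as written, and the other 6 read its reverse complement, GCNNNGTCA. The Prdx1 match is the only 1 of the 8 that also overlaps an AP-1 site, TGANTCA. Nqo1, whose ratio was the highest of all members in 9/7, held no match in its 250 bases. A match is a string of letters and not evidence of binding, and elements farther from a start site were not searched.

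Members were abundant transcripts. Their median FPKM was 83.7 in library 7, 77.4 in library 8, 81.7 in library 9 and 86.1 in library 10, against 15.5 to 15.8 for all genes at FPKM of 1 or more. Library 7 had 13 of the 39 members at an FPKM of 100 or more, library 8 had 16 with the Txnrd1 row among them, and libraries 9 and 10 had 17. Of the measured genes, 7.72% to 7.93% reached that level. In library 7, Gclc, Gstm1, Pgd and Gclm lay just under it, at 92.9 to 98.9. Ftl1, the light chain of ferritin, had the highest level in all 4 libraries, between 1552 and 1624, followed by Sod1, the cytosolic superoxide dismutase, and Fth1, the ferritin heavy chain. Without the Txnrd1 row the members summed to 1.41% of all FPKM in library 7, 1.38% in library 8, 1.475% in library 9 and 1.47% in library 10. Ftl1, Fth1 and Sod1 made up 46.8% to 47.4% of that sum. Ftl1 shares 34.6% of its exonic bases with other annotated genes and has 2 annotated processed copies, so its level is uncertain.

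**Figure D1:**
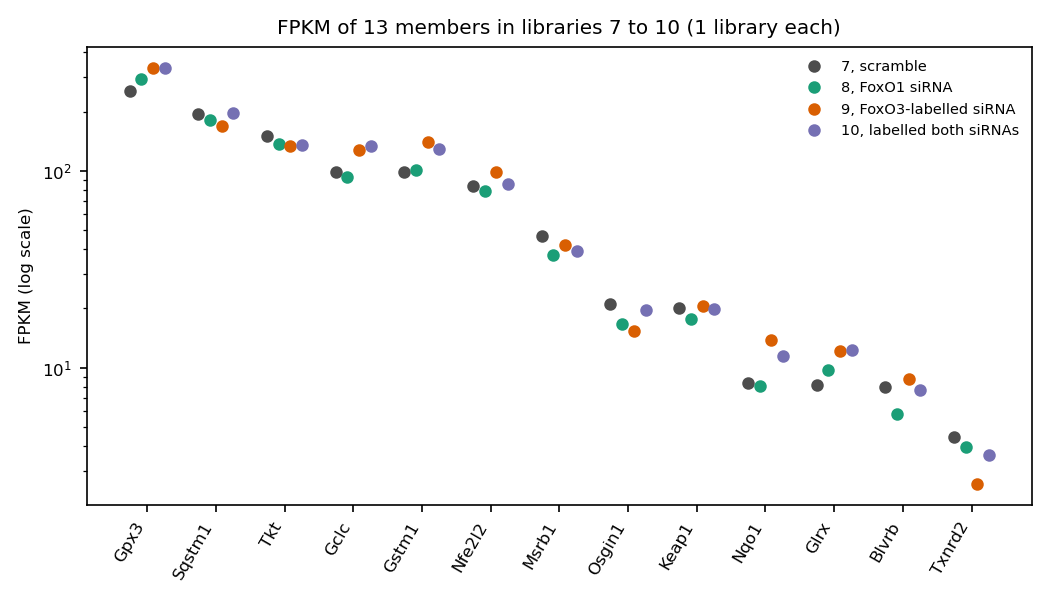
FPKM (log scale, vertical axis) of 13 members in libraries 7 to 10, 1 point for each library, ordered from left to right by the level in library 7. Nqo1, Glrx, Gclc and Gstm1 have their upper points in libraries 9 and 10, and Txnrd2 has its lowest point in library 9.

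Ratios are log2((a + 1)/(b + 1)) of FPKM and are written 8/7 for library 8 over library 7. The added 1 FPKM understates the change of weakly expressed genes. Each of 8/7, 9/7 and 10/7 was formed within the table that holds both libraries, and 9/8 is 9/7 minus 8/7. The ratios 8/7, 9/7 and 10/7 share library 7 and are given side by side. FPKM values of library 7 are those of the 8/7 table, and the other tables give library 7 at 1.00217 and 1.00334 times these values. Sizes are read against 2 steps, 0.58 (about 1.5-fold) and 0.26 (about 1.2-fold), and against all genes with an FPKM of 1 or more in either library, whose robust spread of ratios was 0.13 in 8/7, 0.18 in 9/7, 0.14 in 10/7 and 0.20 in 9/8.

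Among the regulators, Nfe2l2 was highest in library 9 and Sqstm1 lowest there. Nfe2l2 had an FPKM of 83.7 in library 7, 79.0 in library 8, 98.8 in library 9 and 85.3 in library 10. Library 9 was highest, with a 9/7 ratio of 0.23 and a 9/8 ratio of 0.31, and the 10/7 ratio was 0.02. Keap1, the adaptor that targets NRF2 for degradation, had an FPKM of 20.0, 17.8, 20.5 and 19.8 in libraries 7, 8, 9 and 10. Its ratios to library 7 ran from -0.16 in 8/7 to 0.03 in 9/7, its 9/8 ratio was 0.19, and 10.9% of its exonic bases are shared with a gene on the opposite strand. Sqstm1, the autophagy receptor p62 that can draw KEAP1 away from NRF2, had an FPKM of 193, 181, 169 and 196. Its 9/7 ratio was -0.20, opposite in sign to that of Nfe2l2, and 17.3% of its exonic bases are shared with Mrnip on the opposite strand.

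Among the quinone and haem enzymes, Nqo1 differed most between libraries. Nqo1, a quinone reductase and a standard reporter of NRF2 activity (chromosome 8, 107388225 to 107403206, minus strand), had an FPKM of 8.31 in library 7, 8.06 in library 8, 13.8 in library 9 and 11.5 in library 10. Libraries 9 and 10 were high and libraries 7 and 8 low, with ratios of -0.04 in 8/7, 0.66 in 9/7, 0.42 in 10/7 and 0.71 in 9/8. Hmox1, the inducible haem oxygenase, did not share that range and stood at 51.3, 53.0, 55.5 and 57.2 FPKM, with ratios to library 7 of 0.05, 0.11 and 0.15. Blvrb, which reduces flavins and biliverdin downstream of haem breakdown, had an FPKM of 8.00, 5.83, 8.80 and 7.68. Library 8 was low, at a ratio of -0.40 in 8/7, the lowest of all members there. Osgin1, an inhibitor of growth induced by oxidative stress, had an FPKM of 20.9, 16.7, 15.4 and 19.6. It was lower in libraries 8 and 9 than in the other pair, with ratios of -0.31 in 8/7, -0.42 in 9/7 and -0.10 in 10/7.

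The glutathione synthesis genes separated the libraries in the same way as Nqo1. Gclc, the catalytic subunit of glutamate-cysteine ligase that limits glutathione synthesis, had an FPKM of 98.9 in library 7, 92.5 in library 8, 127 in library 9 and 133 in library 10. Its ratios were -0.10 in 8/7, 0.36 in 9/7, 0.42 in 10/7 and 0.45 in 9/8. Gclm, the modifier subunit of the same ligase and a bearer of the motif shown above, had an FPKM of 92.9, 81.9, 107 and 107. Both subunits were lowest in library 8 and higher in libraries 9 and 10 than in library 7. Gsr, glutathione reductase, had an FPKM of 83.5, 76.4, 78.6 and 93.1, highest in library 10, and differed from the ligase subunits in library 9, with a 9/7 ratio of -0.09.

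The 5 genes of NADPH supply had ratios to library 7 between -0.16 and 0.25. G6pdx and Pgd, the dehydrogenases of the oxidative pentose phosphate pathway, and Me1, malic enzyme, all had ratios above 0 in 8/7, 9/7 and 10/7 alike. The largest of these 9 ratios was 0.25, for G6pdx in 10/7, from an FPKM of 34.7 in library 7 to 41.7 in library 10; library 9 stood at 40.4 and library 8 at 36.7. G6pdx shares 13.6% of its exonic bases with Ikbkg on the opposite strand. Tkt, transketolase of the non-oxidative branch, had an FPKM of 150, 136, 134 and 134 in libraries 7 to 10. All 3 siRNA libraries were below the scramble library for Tkt, with ratios of -0.14, -0.16 and -0.16. Taldo1, transaldolase of the same branch, lay between -0.14 in 8/7 and 0.00 in 10/7.

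The conjugation genes were high in library 9. Gstm1, a mu-class glutathione S-transferase, had an FPKM of 98.7 in library 7, 101 in library 8, 140 in library 9 and 129 in library 10. Libraries 7 and 8 were close together and libraries 9 and 10 stood above both, with ratios of 0.03 in 8/7, 0.49 in 9/7, 0.38 in 10/7 and 0.46 in 9/8. Gstm1 belongs to a cluster of similar genes, and reads may have been split among them. Gsta4, an alpha-class transferase that clears lipid aldehydes, was weakly expressed at 0.687, 0.779, 1.13 and 1.08 FPKM, and its 8/7 ratio was not counted because both libraries were under 1. It entered 9/7, 10/7 and 9/8 only through the higher levels of libraries 9 and 10, so the filter fixed a ratio above 0 there. Ugdh, which makes UDP-glucuronate, ran from 42.2 in library 7 to 48.7 in library 9, a 9/7 ratio of 0.20.

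In the thioredoxin and glutaredoxin system the members went different ways. Glrx, the cytosolic glutaredoxin, had an FPKM of 8.12 in library 7, 9.76 in library 8, 12.1 in library 9 and 12.2 in library 10. All 3 siRNA libraries were above the scramble library, and its ratios of 0.24 in 8/7 and 0.53 in 10/7 were the highest of all members there; the 9/7 ratio was 0.52. Srxn1, sulfiredoxin, which repairs over-oxidised peroxiredoxins, had an FPKM of 31.8, 28.5, 33.7 and 39.2, lowest in library 8 and highest in library 10. Msrb1, a selenium-containing methionine sulfoxide reductase, had an FPKM of 46.5, 37.6, 41.9 and 39.1. It was below the scramble library in all 3 siRNA libraries, at -0.30, -0.15 and -0.25. Txnrd2, the mitochondrial thioredoxin reductase, had an FPKM of 4.44, 3.97, 2.55 and 3.61. Library 9 was low at a ratio of -0.62, so the sign was opposite to that of Nqo1. Txn1 and Txn2, the cytosolic and mitochondrial thioredoxins, and Msra, which repairs the other methionine sulfoxide isomer, stayed between -0.12 and 0.22 in all of these ratios.

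Txnrd1, the cytosolic thioredoxin reductase, gave no usable ratio. It was listed at 0 in libraries 7, 9 and 10 and at 126 in library 8. The row's locus is chromosome 10, 82859206 to 82859300, or 95 bases, whereas the annotated gene spans 63762 bases (82833951 to 82897712). Those 95 bases overlap exon 1 of the transcripts Txnrd1-201, Txnrd1-202, Txnrd1-203 and Txnrd1-208, and the row begins at the RefSeq start site whose promoter is printed above. The row covers that short stretch and not the annotated gene, and a listed 0 can be a failed estimate.

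The peroxiredoxins and most glutathione peroxidases were even across the 4 libraries. Prdx1, Prdx2, Prdx4, Prdx5 and Prdx6, which reduce peroxides through a reactive cysteine, had ratios from -0.12 to 0.14 to library 7, and their highest library was 1.07 to 1.19 times their lowest. Prdx2 and Prdx5 share 11.5% and 19.1% of their exonic bases with other genes. Gpx1, the cytosolic glutathione peroxidase, Gpx4, which reduces lipid hydroperoxides, and Gpx8, of the endoplasmic reticulum, stayed between -0.13 and -0.01. Gpx3, the secreted peroxidase that the kidney supplies to plasma, was the exception among the 4 peroxidases. It had an FPKM of 254 in library 7, 293 in library 8, 333 in library 9 and 331 in library 10, and the scramble library was the lowest of the 4. Its ratios were 0.20, 0.39 and 0.38.

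Sod1 had an FPKM of 944, 947, 1007 and 989 in libraries 7 to 10, and Sod3, the secreted superoxide dismutase, was at most 0.175, so no ratio is given for it. Fth1 had an FPKM of 838, 791, 927 and 948, a 10/7 ratio of 0.17, while Ftl1 kept its ratios between -0.07 and -0.03. The ferritin chains thus differed in libraries 9 and 10, where Fth1 was above the scramble library and Ftl1 was not.

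**Figure D2:**
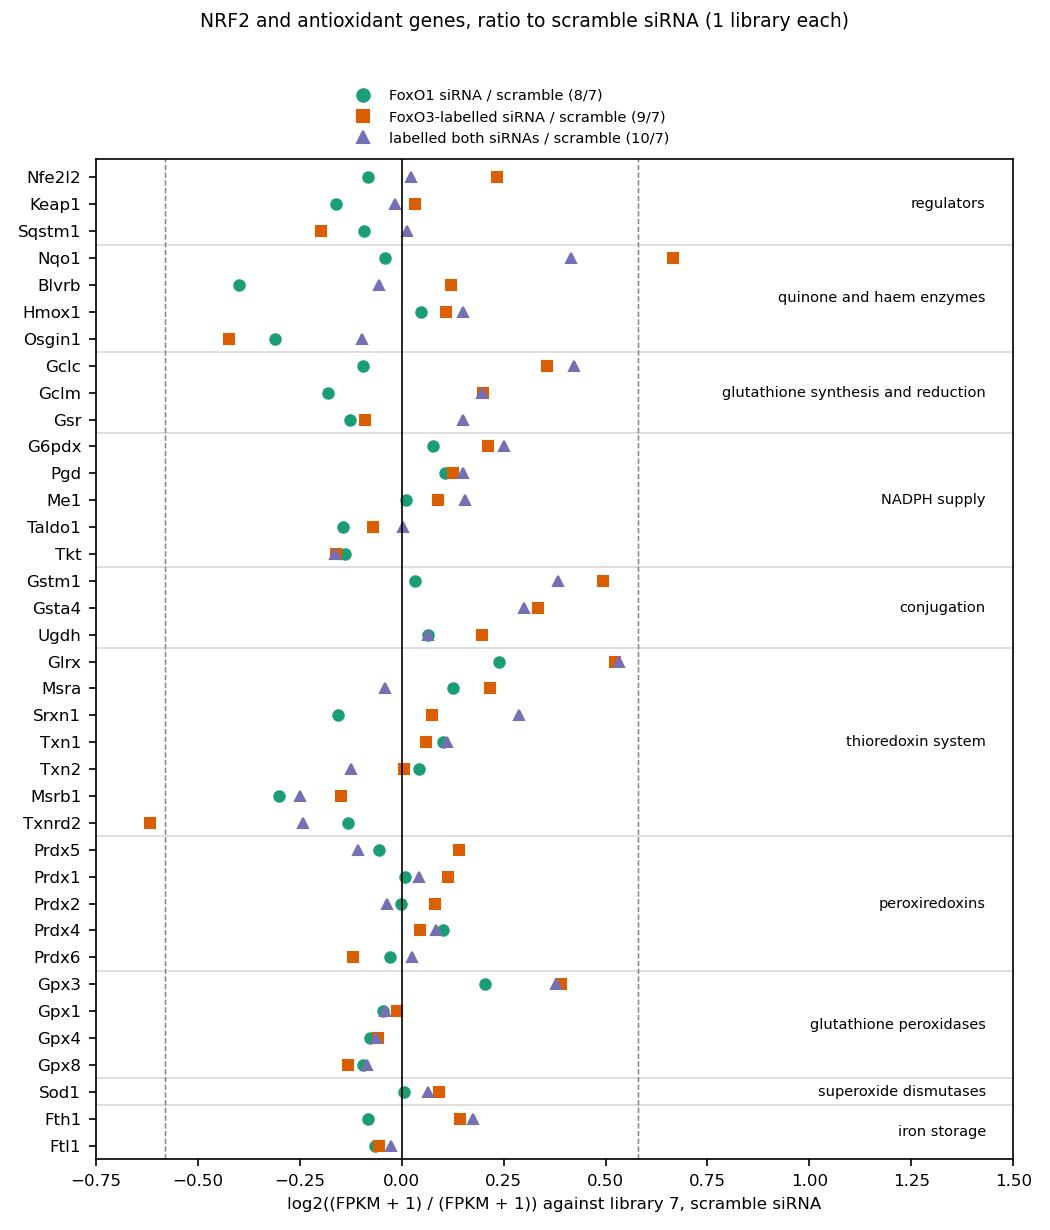
Ratio of FPKM + 1 to the scramble library (log2, horizontal axis) for the 37 measured members, grouped by role, with circles for 8/7, squares for 9/7 and triangles for 10/7. Dashed lines mark 0.58 either way; only Nqo1 and Txnrd2 reach them, both in 9/7, and Gsta4 has no circle because it was under FPKM 1 in libraries 7 and 8.

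With FoxO1 siRNA (8/7), the members lay near all genes, with a slightly lower median. Of 36 measured, 14 (38.9%) had a ratio above 0, against 48.1% of 11912 genes, and the median was -0.05 against -0.01. No member was past 0.58, where 1.91% of all genes were. Blvrb, Osgin1 and Msrb1 were at or under -0.26, so 3 of 36 members were, against 6.48% of all genes, and 0 were at or over 0.26, against 6.41%. The values ran from -0.40 to 0.24. The 3 regulators and the 3 glutathione genes were all below 0, at -0.18 to -0.08, and so were both ferritin chains.

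With the library labelled FoxO3 siRNA (9/7), most members lay above the scramble library by a small amount. Of 37 measured, 25 (67.6%) were above 0, against 45.9% of 11945 genes, and the median was 0.09 against -0.02. Nqo1 at 0.66 and Txnrd2 at -0.62 were the only members past 0.58, 2 of 37, and the background share was 3.73%. Past 0.26 there were 6 higher, namely Nqo1, Glrx, Gstm1, Gpx3, Gclc and Gsta4, and 2 lower, Txnrd2 and Osgin1, against 9.54% and 10.8% of all genes. Gsta4 was counted only because library 9 reached an FPKM of 1, so its sign followed from the filter. Past 0.26 either way there were thus 8 of 37, close to the 20.3% of all genes, and the members stood apart from all genes in the share above 0. With 5 FPKM added in place of 1, neither Nqo1 nor Txnrd2 was past 0.58, and the Txnrd2 ratio was -0.32. The summed FPKM of the epithelial list given above was also lowest in library 9, and its part in this was not tested.

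In the library labelled with both siRNAs (10/7), most members again lay slightly above the scramble library. Of 37 measured, 23 (62.2%) were above 0, against 45.6% of 11954 genes, and the median was 0.04 against -0.02. None was past 0.58, where 2.08% of all genes were. At or over 0.26 there were 7, namely Glrx, Gclc, Nqo1, Gstm1, Gpx3, Gsta4 and Srxn1, against 6.23% of all genes, and none was at or under -0.26, against 7.7%. Gsta4 passed the filter only through its level in library 10, so its sign was fixed here as well. The lowest were Msrb1 at -0.25 and Txnrd2 at -0.24. This count shares library 7 with the 9/7 count.

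Since members are mostly abundant, the counts were also read among genes with an FPKM of 30 or more, a floor chosen after the values were seen. There 18 of 28 members were above 0 in 9/7, against 40.7% of 3769 genes. For 10/7 the count was 19 of 28 against 47.1%, for 8/7 it was 11 of 28 against 50.3%, and for 9/8 it was 21 of 28 against 42.3%. At or over 0.26 stood 0 of 28 in 8/7 against 1.55% of genes, 3 in 9/7 against 3.98%, 4 in 10/7 against 1.58% and 4 in 9/8 against 5.1%. At or under -0.26 stood 1 of 28 in 8/7 against 1.52%, and 0 in 9/7, 10/7 and 9/8 against 6.5%, 3.47% and 8.14%. The direction of each median was that of the full set.

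**Figure D3:**
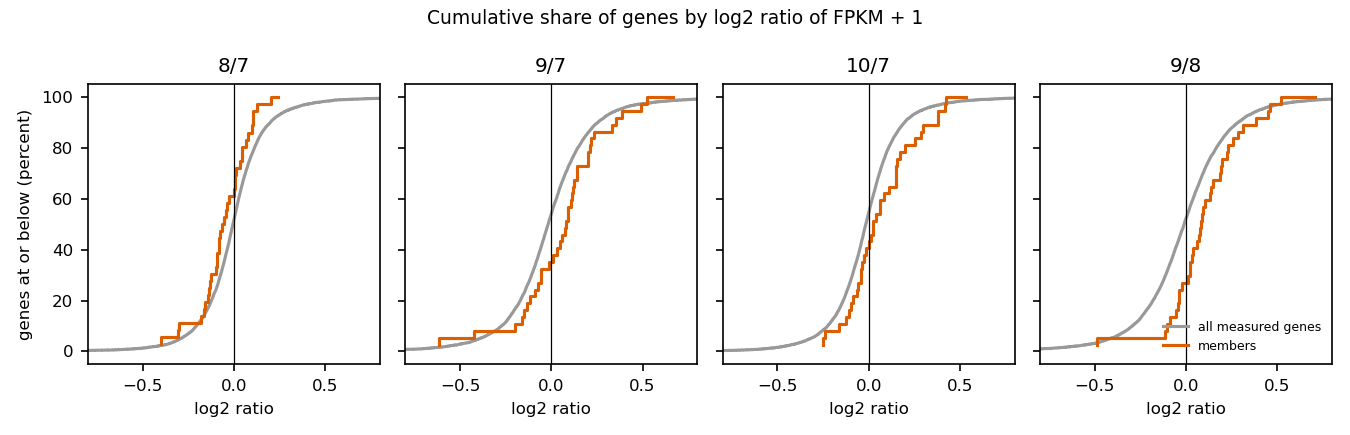
Cumulative percent of genes (vertical axis) at or below a log2 ratio of FPKM + 1 (horizontal axis), 1 panel for each comparison, in grey for all measured genes and in orange for members. The member curve lies to the left of the grey curve around 0 in 8/7 and to the right of it in 9/7, 10/7 and 9/8.

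In the comparison of library 9 with library 8 the scramble library cancels, apart from the scaling between tables. Of 37 members, 28 (75.7%) were above 0 in 9/8, against 47.6% of 11926 genes, and the median was 0.09 against -0.01. Gsta4 is among the 28 and was counted only because library 9 reached an FPKM of 1, so its sign followed from the filter. Nqo1 at 0.71 was the only member past 0.58, and 4.26% of all genes were past it. At or over 0.26 there were 7 members, against 11.5% of genes, and at or under -0.26 there was Txnrd2 alone, against 12.1%. Blvrb, at 0.52, and Nfe2l2, at 0.31, were among the 7 because of low values in library 8 or high values in library 9, with 10/7 ratios of -0.06 and 0.02.

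The contrasts 9/8 and 10/7 have no library in common. Over the 37 members their Pearson correlation was 0.61 and Spearman's rho 0.53, against 0.09 and 0.10 over all 12127 measured genes. These are descriptions across genes of the same 4 libraries, and genes are not independent replicates. In both contrasts 19 of 37 members (51.4%) were above 0, where 23.5% of all genes were. Gsta4 is among the 19 and in the correlations. It reached an FPKM of 1 only in libraries 9 and 10, so both of its signs followed from the filter. At 0.26 or more in both contrasts were 4 members, Nqo1, Gclc, Gstm1 and Glrx, where 1.56% of all genes were. Nqo1 reduces quinones, Gclc catalyses the step that limits glutathione synthesis, Gstm1 conjugates glutathione and Glrx uses it to reduce disulfides. The other pairings with no shared library gave correlations over members of 0.49 for 10/8 with 9/7, against 0.18 over all genes, and -0.20 for 10/9 with 8/7, against 0.10. Members thus varied alike where library 9 or 10 was set over library 7 or 8. The covariance of 10/9 with 8/7 is fixed by the covariances of the other pairings, so its value is not a separate result. The all-gene correlations and shares in this paragraph were not limited to genes as abundant as the members, so the sets differ in level.

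**Figure D4:**
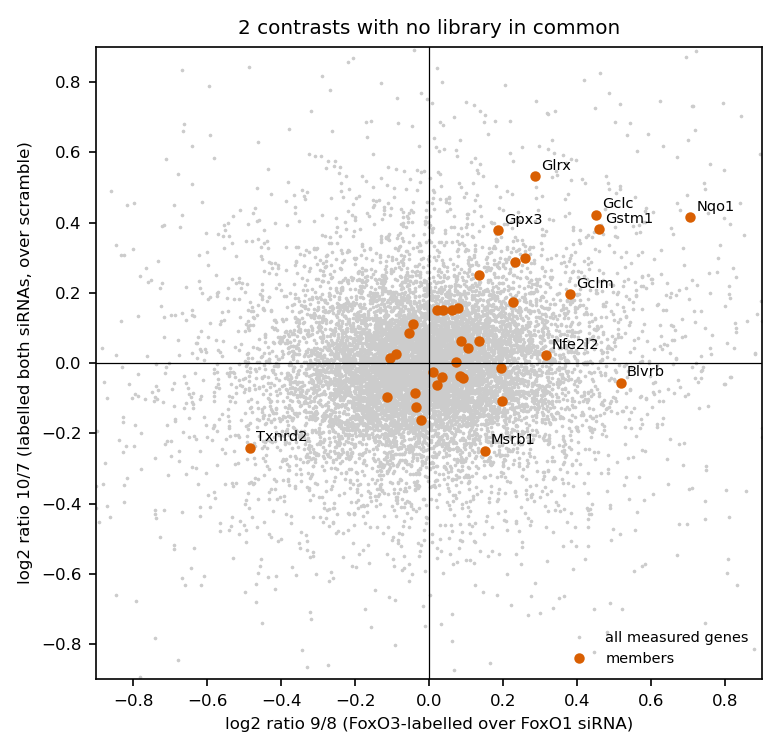
Log2 ratio 9/8 (horizontal axis) against log2 ratio 10/7 (vertical axis), with all measured genes in grey and the 37 members in orange. Nqo1, Gclc, Gstm1 and Glrx lie at 0.26 or more on both axes and Txnrd2 lies below 0 on both; genes beyond 0.9 either way fall outside the frame.

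Which library held the highest level of a member was counted as well. Among the 37, library 9 was highest for 14 and library 10 for 13, library 7 for 8 and library 8 for 2. Over all measured genes the shares were 28.6%, 21.2%, 24.5% and 25.6% in the same order. Library 8 was the lowest for 14 of the 37 (37.8%), against 24.4% of all genes, and library 7 for 13, against 18.9%. Gsta4, highest in library 9 and lowest in library 7, passed the filter only through libraries 9 and 10, which fixed its highest level among these. The range over the 4 libraries had a median of 0.21 in members and 0.23 in all genes on the log2 scale.

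The 7 members with the motif were set beside the 25 whose promoter held none. Without Txnrd1, all 6 measured members with the motif were above 0 in 9/7, at 0.09 to 0.23, and all 6 in 10/7, at 0.02 to 0.25. Of the 25 others, 15 were above 0 in 9/7 and 12 in 10/7, where 45.9% and 45.6% of all genes were. In 8/7 the counts were 4 of 6 and 8 of 25, where 48.1% of all genes were above 0. All genes with the core were not read in this way, so no link between motif and ratio is drawn. The members with the largest ratios, Nqo1, Glrx, Gstm1 and Gpx3, were among the 25 without a match, and Gclc and Gsta4 had no promoter entry.

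The authors' deposited table for each comparison holds a Cuffdiff test, which compares 2 single libraries and not the conditions. In the authors' deposited table for 8/7 none of 38 tested members had p under 0.05, where 1.23% of all tested genes had, and the smallest was p = 0.0680 for Txnrd1. In the authors' deposited table for 9/7 it was Nqo1 alone of 37, at p = 0.0207, where 2.4% of all genes had p under 0.05. In the authors' deposited table for 10/7 Gclc, at p = 0.0399, and Glrx, at p = 0.0452, were under 0.05, where 1.5% of all genes were. All tested members had an adjusted value (q) of at least 0.999 in the authors' deposited tables.

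A list of 53 other genes of the pathway was read in the same way. Of 41 measured in 9/7, 26 were above 0 with a median of 0.09, against 45.9% of all genes and a median of -0.02. In 9/7 2 were at or over 0.58 and 2 were below 0 by as much, against 3.73% of all genes either way. In 8/7 18 of 40 were above 0, against 48.1% of all genes, with a median of -0.01 and 0 past 0.58, against 1.91%. In 10/7 19 of 40 were above 0, against 45.6%, with a median of -0.01 and 1 past 0.58, against 2.08%. Mgst1, a membrane-bound glutathione transferase, had an FPKM of 19.2 in library 7, 19.0 in library 8, 30.5 in library 9 and 22.1 in library 10. The library labelled FoxO3 siRNA was thus the highest for Mgst1, with a 9/7 ratio of 0.64, and likewise for its relative Mgst2, at 4.61, 5.99, 7.50 and 4.80 FPKM and a 9/7 ratio of 0.60.

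A pair of genes of cysteine and glutathione turnover were low in library 9. Slc7a11, the cystine importer, had an FPKM of 4.72, 5.14, 2.52 and 4.35 in libraries 7 to 10, a 9/7 ratio of -0.70. Chac1, which breaks glutathione down, had an FPKM of 8.95, 10.0, 4.38 and 8.28, a 9/7 ratio of -0.89. Both were low in library 9 alone, while Gclc and Gclm were high in libraries 9 and 10. Gstm2, a relative of Gstm1, had an FPKM of 15.8, 13.4, 21.3 and 16.8, with a 9/8 ratio of 0.63. Msrb2, the mitochondrial relative of Msrb1, was weak at 0.868, 0.448, 1.52 and 0.795 FPKM, with a 9/8 ratio of 0.80. Msrb2 passed the filter only through library 9, which fixed the sign of that ratio. Gsta3 stood at 1.12, 0.824, 1.75 and 2.34 FPKM, with a 10/7 ratio of 0.65.

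The lists the authors selected add values from other libraries. In the list of 1852 genes for libraries 1, 2, 5 and 6, chosen for a higher level with Wnt3a than without it in cells given no H2O2, there were 0 of the 39 members and 5 of the 53 other pathway genes, where the list's length is 3.98% of all 46509 gene rows. Mgst1 was in it, at 4.37 FPKM with Wnt diluting buffer (library 1) and 10.3 with Wnt3a (library 2). Under H2O2, which did not enter that choice, Mgst1 stood at 11.3 in library 5, whose labels give no Wnt treatment, and at 30.3 with Wnt3a (library 6), a 6/5 ratio of 1.35. The second list, of 1637 genes for libraries 3, 4, 7 and 10, held 2 of the 39 members, Gsta4 and Sod3, where its length is 3.52% of all gene rows. Gsta4 went from 1.38 with scramble siRNA to 2.29 with both siRNAs in cells given Wnt3a and no H2O2 (library 4 over 3), a ratio of 0.46, and its 10/7 ratio was 0.30. That list was chosen by the authors for large ratios in 4/3 and 10/7, so these values are a description.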

How the data were processed

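RNA-seq values of 10 libraries, 1 for each group, were used as deposited. Per the submitters' processing notes, TopHat2, Cufflinks and Cuffdiff were used with build mm10; the sources used here do not give versions, settings, annotation or strandedness. The authors deposited 3 tables of all genes with FPKM values and the p-values and q-values of Cuffdiff, each scaled on its own, and FPKM values for 2 lists of selected genes.

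Ratios were log2((a + 1)/(b + 1)) of FPKM, within a table. A gene counted as measured at an FPKM of 1 or more in either library, and rows listed at exactly 0 were left out. No test was made, since each group has 1 library. Members, lists, named genes and size steps were chosen with earlier results of these data known. Values are given in all 4 libraries for the 4 highest and 4 lowest members in 9/7, the 2 highest and 2 lowest in 8/7 and 10/7, the regulators, members listed at 0, and further members of each role. Other pathway genes are named where past 0.58 in any comparison. Coordinates and exon overlap came from GENCODE M21 (GRCm38) and promoters from RefSeq (GRCm38.p6). Python 3.11.15, numpy 2.4.6 and pandas 2.3.3 were used. Protein sequences, and a search for selenocysteine in them, were not used here.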

Additional observations from a re-analysis of the deposited data

Results flagged for a closer look

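Gsta3, a glutathione transferase of the other pathway genes, and Sod3, a member below FPKM 1, had ratios of opposite sign for the library labelled with both siRNAs over scramble without H2O2 (4/3) and with it (10/7). Gsta3 had a ratio of -0.32 in 4/3, from 1.37 to 0.891 FPKM, and 0.65 in 10/7, from 1.13 to 2.34 FPKM. Sod3 had a ratio of 0.0703 in 4/3, from 0.0310 to 0.0824 FPKM, and -0.0444 in 10/7, from 0.0618 to 0.0296 FPKM. With 1 library in each group the difference between the conditions was not tested, and both genes come from a list that the authors chose for large ratios in 4/3 and 10/7.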

How the results depend on the processing

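The medians of the members and their counts above 0 moved little under 9 alternatives, 7 planned and 2 chosen after seeing the data (an FPKM of 30 or more, and leaving out the 6 members that share 5% or more of their exonic bases). The median ran from -0.05 to -0.04 in 8/7, from 0.08 to 0.11 in 9/7, from 0.03 to 0.06 in 10/7 and from 0.08 to 0.10 in 9/8, and kept its sign throughout. The count above 0 ran from 11 to 15, from 18 to 26, from 19 to 24 and from 21 to 29 in the same order, the lowest in each among the 28 members with an FPKM of 30 or more. The count of members past 0.58 did depend on the setting. With a pseudocount of 5 FPKM it was 0 in 9/7 and 0 in 9/8, and with 0.1 FPKM it was 1 in 10/7 and 3 in 9/8. With an FPKM of 5 or more it was 1 in 9/7, without Txnrd2, and with 30 or more it was 0 in 9/7 and 0 in 9/8. With rows listed at 0 kept, Txnrd1 made it 1 in 8/7 and 2 in 9/8. With 5 FPKM added, Txnrd2 was -0.32 and Gsta4 0.11 in 9/7, and Blvrb was -0.26 in 8/7; with 0.1 FPKM added, Gsta4 was 0.64 in 9/7. Depth is unknown and every group has 1 library, so no ratio has a known error.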
